A study of Mus musculus with 6 samples.

Results

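The genes described here carry fatty acids into heart muscle and break them down by beta-oxidation. They are a list of 38 genes, chosen by name but with earlier results of these data known. Of these, 35 were measured by a probe set that the platform annotation ties to that gene alone. Such a probe set was present for 19938 genes. Left ventricles of male C57BL/6 mice were profiled on 6 Affymetrix arrays, 3 from MURC knockout mice and 3 from wild-type mice. MURC is now named cavin-4. Its gene, Cavin4, makes a coat protein of the caveolae of muscle, small pits of the cell membrane, and the question was which transcripts differ without it. The knockout mice were 11, 11 and 13 weeks old (replicates 1 to 3) and the wild-type mice 13, 13 and 12 weeks, with no treatment named in either group. The labels do not say how the gene was disrupted or in which cells, nor that the arrays stand for different animals. The p-values therefore reflect only how far these samples spread, which may be technical. Of the list, Acsl1, the main long-chain acyl-CoA synthetase of heart, Acsl3 and Cpt1b, the muscle form of carnitine palmitoyltransferase, had no probe set of their own and are not analysed here.

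The adult heart draws most of its energy from fatty acids. Lipoprotein lipase releases them at the capillary wall, membrane carriers and binding proteins bring them into the cell, acyl-CoA synthetases activate them, and the carnitine shuttle moves the acyl chains into mitochondria. There each turn of beta-oxidation uses a dehydrogenase, a hydratase, a second dehydrogenase and a thiolase to cut off acetyl-CoA, and electrons leave through the electron-transfer flavoprotein. Many of these genes are known targets of the PPAR and ERR nuclear receptors, which bind repeats or extended forms of the letters AGGTCA.

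Promoter sequence is shown for the members whose signals set the genotypes apart most clearly among those with an entry and 1 annotated start, for the gene pair of the trifunctional protein, and for Acadm, a textbook nuclear receptor target. The sequences come from RefSeq (GRCm38.p6), whose table held 32 windows for 29 of the 38 genes, each running from 250 bases before to 50 bases after a gene's start. Capitals mark the GC box core GGGCGG, the CCAAT box, the nuclear receptor motif AGGTCA and the palindrome CGCATGCG, on either strand. Hadha and Hadhb, which encode the alpha and beta subunits of the mitochondrial trifunctional protein, lie head to head on chromosome 5 in opposite directions, and the 272 bases between their starts are given on the plus strand (chr5:30154981-30155252). The others are the 250 bases upstream of the start on the gene's own strand, for Hadh (chr3:131272102-131272351, minus strand), Eci1 (chr17:24426433-24426682, plus), Etfdh (chr3:79628768-79629017, minus), Etfa (chr9:55512244-55512493, minus) and Acadm (chr3:153944644-153944893, minus).
Hadha-Hadhb: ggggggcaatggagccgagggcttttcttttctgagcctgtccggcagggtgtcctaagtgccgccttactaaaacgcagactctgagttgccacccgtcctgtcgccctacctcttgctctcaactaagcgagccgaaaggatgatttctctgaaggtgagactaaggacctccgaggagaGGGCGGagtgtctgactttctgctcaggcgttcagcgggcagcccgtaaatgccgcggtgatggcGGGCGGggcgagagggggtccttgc
Hadh: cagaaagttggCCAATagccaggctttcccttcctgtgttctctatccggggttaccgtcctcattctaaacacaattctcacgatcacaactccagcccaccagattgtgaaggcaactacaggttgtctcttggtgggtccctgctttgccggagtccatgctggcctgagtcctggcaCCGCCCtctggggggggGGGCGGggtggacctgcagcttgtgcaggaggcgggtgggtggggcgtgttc
Eci1: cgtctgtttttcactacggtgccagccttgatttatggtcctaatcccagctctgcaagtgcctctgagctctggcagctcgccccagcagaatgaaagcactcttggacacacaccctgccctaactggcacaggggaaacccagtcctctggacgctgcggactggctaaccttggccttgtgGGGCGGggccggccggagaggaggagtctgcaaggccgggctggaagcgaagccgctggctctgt
Etfdh: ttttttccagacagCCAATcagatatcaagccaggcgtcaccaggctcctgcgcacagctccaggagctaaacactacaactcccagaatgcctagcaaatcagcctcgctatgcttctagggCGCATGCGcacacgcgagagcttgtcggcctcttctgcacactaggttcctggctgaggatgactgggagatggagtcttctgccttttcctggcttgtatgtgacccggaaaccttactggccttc
Etfa: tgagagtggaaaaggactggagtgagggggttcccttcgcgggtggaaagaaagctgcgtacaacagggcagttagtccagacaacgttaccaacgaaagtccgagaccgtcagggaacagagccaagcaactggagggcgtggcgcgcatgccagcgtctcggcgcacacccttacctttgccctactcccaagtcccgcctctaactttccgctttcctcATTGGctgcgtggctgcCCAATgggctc
Acadm: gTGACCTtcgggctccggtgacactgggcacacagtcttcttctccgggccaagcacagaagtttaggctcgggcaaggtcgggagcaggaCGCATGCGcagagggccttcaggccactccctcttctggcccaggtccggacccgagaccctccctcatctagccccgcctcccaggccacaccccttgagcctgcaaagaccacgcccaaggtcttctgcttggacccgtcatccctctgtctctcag

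The interval between Hadha and Hadhb held 2 GGGCGG motifs and their windows shared 228 bases, so the promoter letters of both subunits are largely the same. GGGCGG, the core of the GC box bound by Sp1-like factors, was in 75% of the members' windows, against 35.7% of all 32851 windows and 46.2% of those of protein-coding genes. CCAAT was in 46.9% of member windows and 37.4% of all, and AGGTCA, the nuclear receptor motif, in 18.8% and 16.3%. The palindrome CGCATGCG, the core of the site of nuclear respiratory factor 1, was in the windows of Etfdh and Acadm, or 6.25% of member windows against 1.87% of all. Acadm also held AGGTCA, read as TGACCT on its strand. The direct repeat of AGGTCA with 1 base of any kind between the copies, and the extended form TNAAGGTCA, each of which contains AGGTCA, were in 0 member windows and in 0.0396% and 1.28% of all. CACGTG was in 1 member window, of Slc27a1, and in 7.15% of all. These matches describe letters near the start sites only.

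The arrays followed their labels at the targeted gene. Cavin4 measured 5.38, 5.74 and 5.59 in the knockout, against 8.75, 8.62 and 8.07 in the wild type, a log2 difference of -2.91 (SE 0.18, limma adjusted p = 0.012). The groups were far apart, but the adjusted p was 0.0754 with a replicate block and 0.0646, 0.118 and 0.0777 without knockout replicate 1, knockout replicate 3 and wild-type replicate 1. Knockout replicate 2 stood apart by atrial genes, with the atrial myosin light chains Myl4 and Myl7 at 8.67 and 7.22, where the other 5 arrays lay between 5.41 and 5.61 and between 3.61 and 4.11, so results are also given without that array. Markers of heart muscle cells were bright on every array, and the mean log2 signal over 8 of 8 markers lay between 12.43 and 12.45 in the knockout and between 12.40 and 12.44 in the wild type. In bulk tissue, fewer cells of a type and less RNA per cell cannot be told apart.

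No member passed the adjusted threshold of 0.05 in limma. Over the 24898 probe sets tested, 0.00402% passed, the 1 probe set of Cavin4. When the 17934 annotated probe sets alone were tested, 2.01% passed and the members still numbered 0. All 35 measured genes were bright enough to be tested, and their adjusted p-values ran from 0.24 to 1. At an unadjusted p under 0.05 there were 5 members with lower signal in the knockout, Slc27a1, Acat1, Hadh, Etfdh and Eci1, and 1 with higher signal, Etfa. These are 14.3% and 2.86% of the measured members, beside 9.02% and 4.71% of all probe sets tested. The median log2 difference of the members was -0.04, equal to that of all named genes (-0.04) and of all probe sets tested (-0.04). Negative differences made up 24 of the 35, or 68.6%, against 59% of all probe sets tested. The 95% interval of the difference stayed within 0.5 log2 units of 0, or 1.41-fold, for 33 of the 35, the exceptions being Ucp3 and Ehhadh.

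**Figure D1:**
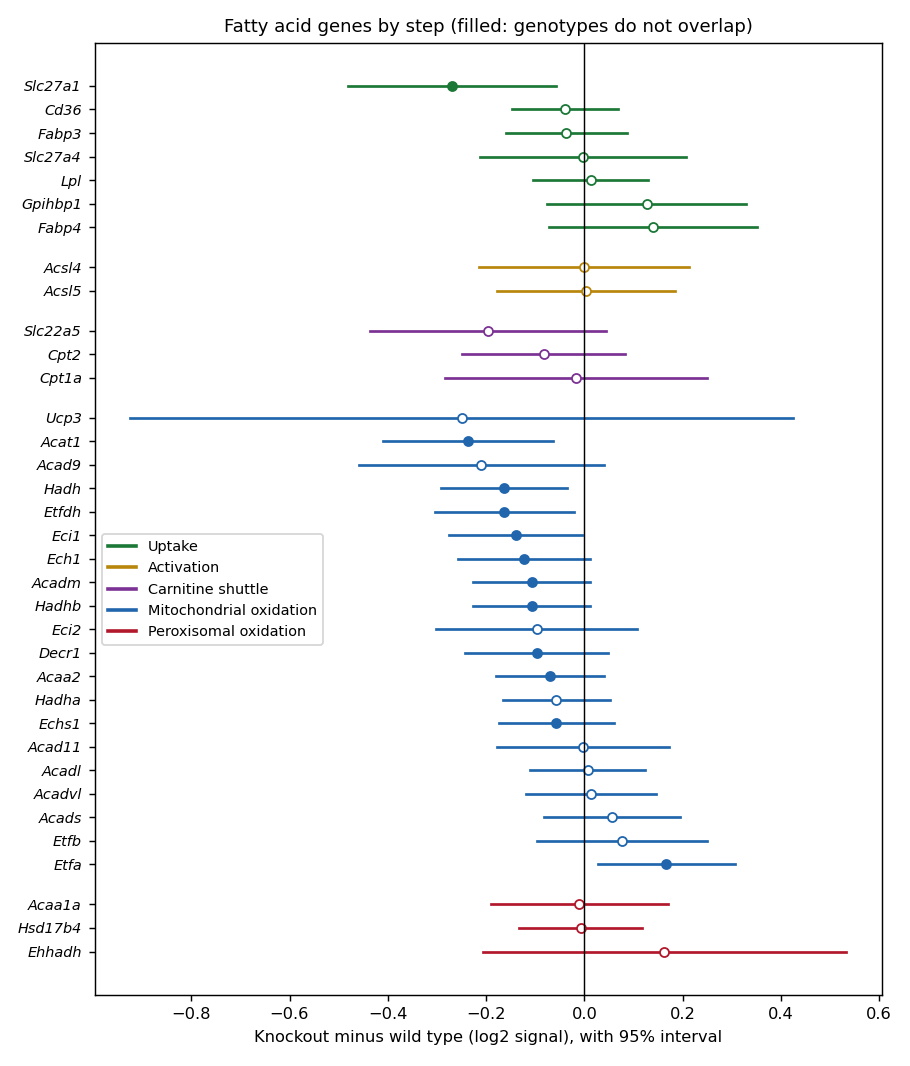
Knockout minus wild type in log2 signal for the 35 measured genes, grouped by step, with 95% intervals from limma (horizontal lines, n = 3 against 3). Filled points mark genes whose genotypes do not overlap, 11 lower and 1 higher, and open points the other 23.

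The genotypes did not overlap at 12 members, 11 of them lower in the knockout and 1 higher. Among all probe sets tested the lower kind made up 12.9% and the higher kind 6.12%, so 31.4% of the members against 12.9% lay below without overlap. Brightness moved with this count. Of the 16 members with a mean of 10 or more, 8 lay below without overlap, where 34.9% of all 831 such probe sets and 31% of the 432 with a single gene symbol did so. Of the 19 dimmer members it was 3, or 15.8%, near the 12.9% of all probe sets tested. At an unadjusted p under 0.05 with lower signal there were 3 of the 16, beside 26.1% of all such probe sets. Above without overlap there was 1 of the 16, Etfa, beside 8.54%. The count also moved with the scaling between arrays, since quantile normalization left 3 members lower (Acat1, Ech1 and Slc27a1; 10.6% of all) and 3 higher (Acads, Etfa and Etfb; 9.39%), and median centring left 3 lower (Acat1, Hadh and Slc27a1; 10.4%) and 2 higher (Acads and Etfa; 7.76%). At an unadjusted p under 0.05 the quantile values gave 2 lower (7.1% of all) and 3 higher (6.77%), and the centred values 3 lower (7.29%) and 1 higher (5.72%). Negative differences were then 18 and 19 of 35, beside 51.9% and 54% of all probe sets tested. Without knockout replicate 2, 15 members lay below without overlap and 2 above, beside 18.8% and 9.98% of all. With that array left out, 2 members had an unadjusted p under 0.05 with lower signal (7.56% of all probe sets) and 2 with higher signal (4.41%). Wild-type replicate 1 also moved the counts. Without it 11 members lay below without overlap and 6 above, beside 16% and 13.3% of all, and 3 and 4 had an unadjusted p under 0.05 with lower and higher signal, beside 6.27% and 6.25%.

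**Figure D2:**
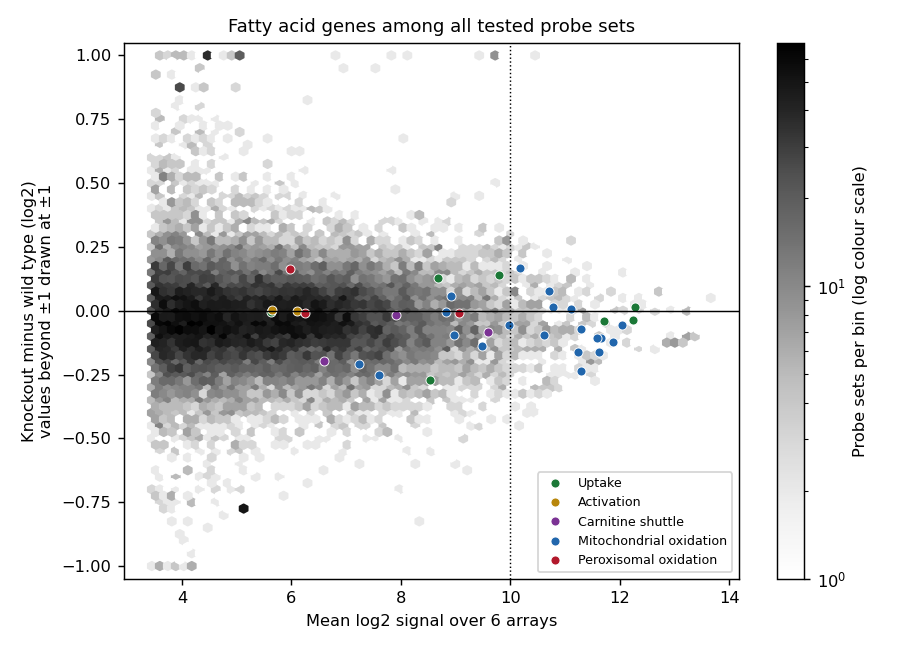
Log2 difference, knockout minus wild type, against the mean log2 signal over 6 arrays for the 24898 tested probe sets (grey bins, darker for more probe sets on a log colour scale, differences beyond 1 drawn at 1) and the 35 genes (coloured points by step). The dotted line stands at a mean of 10, above which 16 of the 35 lie, 11 of them below 0.

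Among the uptake genes, 1 of 7 was lower without overlap, the fatty acid carrier Slc27a1. That is 14.3%, near the 12.9% of all probe sets tested. Slc27a1, also called FATP1, encodes a membrane protein that takes up long-chain fatty acids and can join them to coenzyme A. It measured 8.52, 8.47 and 8.22 in the knockout, against 8.75, 8.61 and 8.66 in the wild type. Each knockout array lay below each wild-type array, with knockout replicate 3 lowest. The log2 difference of -0.27 (SE 0.09), or 1.21-fold, had an unadjusted p of 0.0191 and an adjusted p of 0.263 in limma, was -0.24 once arrays were quantile normalized, and was -0.30 and -0.18 without knockout replicates 2 and 3. The other carrier of the family, Slc27a4, was dim and overlapped, with 5.53, 5.69 and 5.68 against 5.65, 5.55 and 5.71.

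Cd36, the main fatty acid translocase of the heart cell surface, measured 11.69, 11.70 and 11.68 in the knockout, against 11.77, 11.70 and 11.72 in the wild type. The genotypes met at 11.70, and the log2 difference of -0.04 (SE 0.05) turned to 0.03 after quantile normalization. Fabp3, the heart fatty acid binding protein, measured 12.27, 12.19 and 12.22 against 12.25, 12.21 and 12.33, with overlap and a log2 difference of -0.04, and its second probe set gave -0.01. For Cd36 the 95% interval of the difference ran from -0.15 to 0.07 and for Fabp3 from -0.16 to 0.09.

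The 3 genes of capillary lipid handling had positive differences, and their genotypes overlapped. Lpl, the lipase that frees fatty acids from lipoproteins, measured 12.28, 12.29 and 12.28 against 12.24, 12.23 and 12.34, a log2 difference of 0.01 with a 95% interval from -0.10 to 0.13. Gpihbp1, which anchors the lipase to capillary endothelium, measured 8.71, 8.65 and 8.85 against 8.76, 8.53 and 8.54. Fabp4, the binding protein of fat cells and capillary endothelium, measured 9.90, 9.79 and 9.90 against 9.92, 9.64 and 9.61. In both genes wild-type replicate 1 lay within the knockout range or above it and the other wild-type arrays lay below all knockout arrays. Their log2 differences were 0.13 (SE 0.09, adjusted p = 0.592 in limma) and 0.14 (SE 0.09, adjusted p = 0.565), and without wild-type replicate 1 they were 0.20 and 0.24. With each array left out in turn they ran from 0.07 to 0.20 and from 0.08 to 0.24. Endothelial markers had positive differences in 7 of 10 cases, a mean log2 signal over the list from 8.40 to 8.47 in the knockout and from 8.28 to 8.49 in the wild type, and Rgcc at a log2 difference of 0.36 (adjusted p = 0.268 in limma). The list was low in wild-type replicates 2 and 3, as the pair was, and its part in these differences was not tested. The mean of the fat cell markers ran the other way, from 4.22 to 4.28 in the knockout and from 4.32 to 4.43 in the wild type over 9 of 10 markers. Single markers were mixed, with 5 negative and 3 positive differences among the 8 tested. The defining marker Adipoq was below the filter on dim probe sets.

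Activation, the joining of a fatty acid to coenzyme A, was represented by 2 of its 4 genes. Acsl4, which prefers arachidonic acid, measured 6.00, 6.17 and 6.11 in the knockout, against 6.16, 6.16 and 5.96 in the wild type, and Acsl5 measured 5.61, 5.64 and 5.67 against 5.66, 5.58 and 5.67. Both overlapped almost completely, with log2 differences of 0.00 and 0.003 and 95% intervals from -0.21 to 0.21 and from -0.18 to 0.18.

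All 3 measured genes of the carnitine shuttle had negative differences, with overlap in each. Slc22a5, the plasma membrane carnitine transporter OCTN2, measured 6.43, 6.62 and 6.43 in the knockout, against 6.79, 6.51 and 6.77 in the wild type. Wild-type replicate 2 fell within the knockout range, and the log2 difference was -0.20 (SE 0.10, adjusted p = 0.462 in limma). Cpt2, which transfers the acyl chain back to coenzyme A inside mitochondria, measured 9.62, 9.49 and 9.53 against 9.58, 9.56 and 9.75, a difference of -0.08. Cpt1a, the liver form of the entry enzyme, measured 7.99, 7.86 and 7.84 against 8.17, 7.79 and 7.78, and its difference of -0.02 rested on wild-type replicate 1, without which it was 0.11. It was also 0.03 after quantile normalization and 0.003 after median centring.

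Further shuttle genes from a wider pathway list were lower without overlap. Slc25a20, the carrier that exchanges acylcarnitine for carnitine across the inner mitochondrial membrane, measured 9.47, 9.32 and 9.26 in the knockout, against 9.69, 9.77 and 9.65 in the wild type. A gap of 0.18 separated the genotypes, and the log2 difference was -0.35 (SE 0.07, adjusted p = 0.108 in limma). It was the 1 gene of the 61 tested on the wider pathway list to pass when only annotated probe sets were tested (adjusted p = 0.0316, within 0.0316 to 0.259 over its alternatives). In that setting 2.01% of all probe sets passed. Crat, carnitine acetyltransferase of the mitochondrial matrix, measured 10.53, 10.54 and 10.38 against 10.72, 10.68 and 10.71. Its log2 difference was -0.22 (SE 0.06, adjusted p = 0.186), without overlap. After quantile normalization these differences were -0.33 and -0.17.

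Mitochondrial oxidation held 11 of the 12 members whose genotypes were separate as deposited, and none passed the adjusted threshold in limma. Of its 20 genes 10 lay below without overlap and 1 above, or 50% and 5%, beside 12.9% and 6.12% of all probe sets tested and 34.9% and 8.54% of those with a mean of 10 or more. The 20 genes are not all that bright, with Acad9 and Ucp3 at means of 7.24 and 7.60, so neither share covers a like set. At an unadjusted p under 0.05 there were 4 lower and 1 higher, or 20% and 5%, beside 9.02% and 4.71%. Differences were negative for 15 of the 20, or 75%, beside 59%. After quantile normalization 2 were lower without overlap, Acat1 and Ech1, or 10% beside 10.6%, and 3 higher, Acads, Etfa and Etfb. After median centring it was 2 lower, Acat1 and Hadh, or 10% beside 10.4%, and 2 higher, Acads and Etfa. The median difference was -0.10 as deposited. After quantile normalization it was -0.04, without knockout replicate 2 it was -0.10, and without knockout replicate 3 it was -0.05.

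The 4 acyl-CoA dehydrogenases that start each turn are graded by chain length, and of them medium-chain Acadm was the 1 without overlap as deposited. Acadm measured 11.63, 11.61 and 11.56 in the knockout, against 11.70, 11.76 and 11.66 in the wild type. The gap between genotypes was 0.03, and the log2 difference of -0.11 (SE 0.05, adjusted p = 0.417 in limma) was -0.02 after quantile normalization. Acadvl, for very long chains, measured 10.81, 10.78 and 10.76 against 10.84, 10.78 and 10.69, and Acadl, for long chains, 11.10, 11.11 and 11.13 against 11.16, 11.10 and 11.06. Acads, for short chains, measured 8.92, 8.93 and 8.96 against 8.96, 8.82 and 8.86. These 3 overlapped as deposited, with differences of 0.01, 0.01 and 0.06. After quantile normalization, and also after median centring, Acadm overlapped and Acads was higher without overlap. Acad9, which also helps to assemble respiratory complex I, measured 7.18, 7.20 and 7.03 against 7.56, 7.28 and 7.20, a difference of -0.21 in which the genotypes met at 7.20 and which was -0.10 without wild-type replicate 1. Acad11, which acts on very long acyl chains, measured 8.88, 8.83 and 8.78 against 8.82, 8.72 and 8.96, with overlap and a difference of -0.003.

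Among the enzymes of the later steps, the unadjusted p was smallest for Acat1 and Hadh, and no enzyme passed the adjusted threshold. Hadh, the short-chain hydroxyacyl-CoA dehydrogenase, measured 11.60, 11.53 and 11.47 in the knockout, against 11.74, 11.65 and 11.70 in the wild type. Every knockout array lay below every wild-type array, with a log2 difference of -0.16 (SE 0.06) or 1.12-fold, an unadjusted p of 0.0196 and an adjusted p of 0.266 in limma. Its upstream sequence, shown above, held 2 GGGCGG motifs and 1 CCAAT. The difference was -0.07 after quantile normalization.

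Acat1, the mitochondrial thiolase of ketone bodies and isoleucine, measured 11.20, 11.26 and 11.05 in the knockout, against 11.50, 11.40 and 11.32 in the wild type. The highest knockout array lay 0.06 under the lowest wild-type array, and the log2 difference of -0.24 (SE 0.07), or 1.18-fold, had the smallest unadjusted p of the members (0.0141, adjusted p = 0.24 in limma). It was -0.21 after quantile normalization, -0.28 without knockout replicate 2 and between -0.28 and -0.18 with each array left out.

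**Figure D3:**
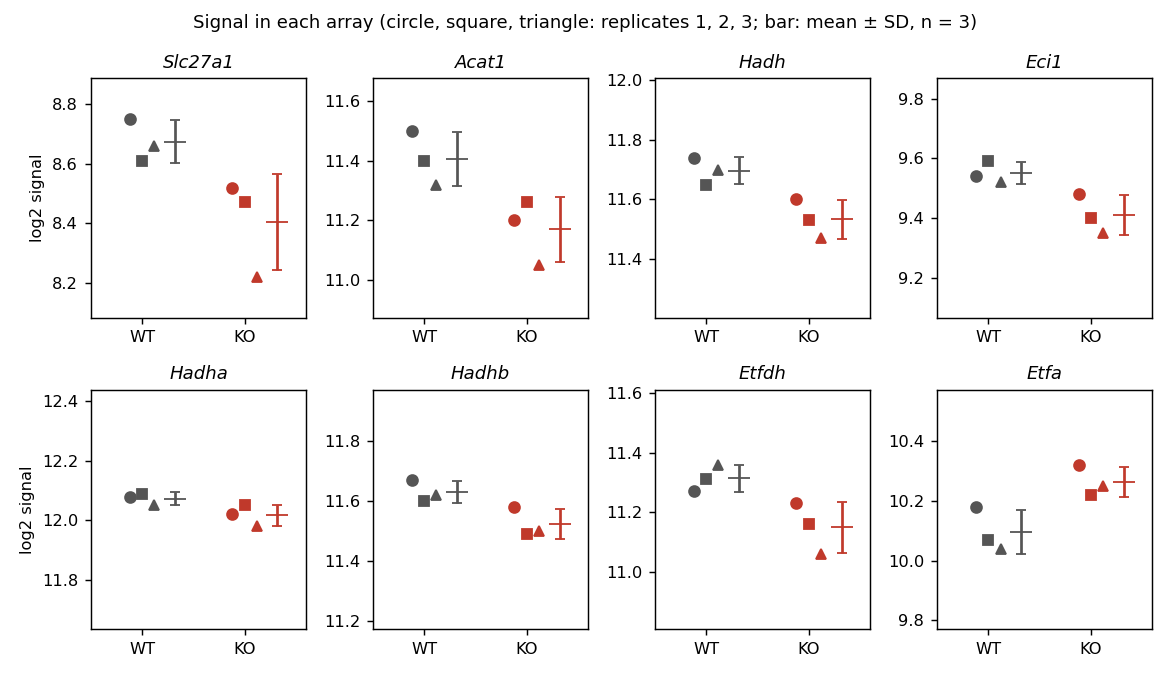
Log2 signal of 8 members in each array, wild type in grey and knockout in red, with mean ± SD (n = 3) beside the points. Each panel spans 0.8 log2 units. The genotypes do not overlap in 7 of the panels, Etfa is the 1 with higher knockout signal, and in Hadha the genotypes meet at 12.05.

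The trifunctional protein joins the hydratase and long-chain hydroxyacyl-CoA dehydrogenase of Hadha to the thiolase of Hadhb. Hadha measured 12.02, 12.05 and 11.98 in the knockout, against 12.08, 12.09 and 12.05 in the wild type. Hadhb measured 11.58, 11.49 and 11.50 against 11.67, 11.60 and 11.62. Knockout replicate 2 tied with wild-type replicate 3 at Hadha, while at Hadhb the genotypes did not overlap. The log2 differences were -0.06 (SE 0.05, adjusted p = 0.661 in limma) and -0.11 (SE 0.05, adjusted p = 0.416), and the second Hadhb probe set gave -0.10. After quantile normalization the subunits measured -0.04 and -0.03, and as deposited each difference lay within the 95% interval of the other. These are the genes that share the promoter interval shown above.

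Echs1, the short-chain hydratase, and Acaa2, the medium-chain thiolase, were lower without overlap by narrow margins. Echs1 measured 9.97, 9.96 and 9.90 against 10.00, 10.01 and 9.99, and Acaa2 11.29, 11.25 and 11.25 against 11.36, 11.34 and 11.30. The gaps between genotypes were 0.02 and 0.01, beside deposited values given to 2 decimals, and the log2 differences were -0.06 and -0.07.

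The auxiliary enzymes that prepare unsaturated chains all had negative differences. Eci1, an enoyl-CoA isomerase, measured 9.48, 9.40 and 9.35 in the knockout, against 9.54, 9.59 and 9.52 in the wild type. The groups were separate, with a log2 difference of -0.14 (SE 0.06), an unadjusted p of 0.0437 and an adjusted p of 0.35 in limma. Ech1, a dienoyl-CoA isomerase, measured 11.88, 11.84 and 11.73 against 11.99, 11.93 and 11.90, and Decr1, the dienoyl-CoA reductase, 10.63, 10.60 and 10.45 against 10.69, 10.64 and 10.64. Both were separate by 0.02 or less, with differences of -0.12 and -0.10 that were -0.09 and -0.04 after quantile normalization. Eci2, an isomerase of mitochondria and peroxisomes, overlapped at 9.04, 8.96 and 8.76 against 9.11, 9.01 and 8.93, a difference of -0.10. Knockout replicate 3 was the lowest array at all 4, and without it the differences of Eci1, Ech1, Decr1 and Eci2 were -0.11, -0.08, -0.04 and -0.02.

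For the electron-transfer flavoprotein and the enzyme it feeds, Etfa had a positive and Etfdh a negative difference, and neither passed the adjusted threshold. Etfa, its alpha subunit, measured 10.32, 10.22 and 10.25 in the knockout, against 10.18, 10.07 and 10.04 in the wild type. Each knockout array was above each wild-type array, and the log2 difference of 0.17 (SE 0.06), or 1.12-fold, had an unadjusted p of 0.0257 and an adjusted p of 0.293 in limma. Etfb, the beta subunit, measured 10.79, 10.69 and 10.77 against 10.82, 10.62 and 10.58, a difference of 0.08 (95% interval from -0.10 to 0.25) with overlap through wild-type replicate 1. The difference was 0.15 without that array and 0.03 without wild-type replicate 3.

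Etfdh, which passes those electrons to ubiquinone, measured 11.23, 11.16 and 11.06 in the knockout, against 11.27, 11.31 and 11.36 in the wild type. The genotypes did not overlap, with a log2 difference of -0.16 (SE 0.06), an unadjusted p of 0.0286 and an adjusted p of 0.306 in limma. Taken within each array, which removes the array's overall level, the signal of Etfa minus that of Etfdh was -0.91, -0.94 and -0.81 in the knockout, against -1.09, -1.24 and -1.32 in the wild type. Etfa alone was separate upward and Etfdh alone downward, so the genotypes had to be separate in this contrast. Its separation is therefore no further evidence. The genotype means differed by 0.33, a contrast chosen after its values were seen and therefore given without a test. Etfa was 0.19 and Etfdh -0.14 after quantile normalization, and 0.19 and -0.17 without knockout replicate 2. The upstream sequences shown above held 2 CCAAT motifs at Etfa, and 1 CCAAT and the palindrome at Etfdh. A link between these motifs and the signals was not tested.

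Ucp3, an inner membrane carrier of muscle mitochondria induced by fatty acids, was the most variable member. It measured 7.79, 7.21 and 7.42 in the knockout, against 8.07, 7.03 and 8.07 in the wild type. Wild-type replicate 2 was the lowest of the 6 arrays and the other wild-type arrays the highest, so the log2 difference of -0.25 (SE 0.29) had a 95% interval from -0.92 to 0.42. It was -0.60 without wild-type replicate 2, and -0.08 without wild-type replicate 1 or without wild-type replicate 3.

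The 3 peroxisomal genes, which shorten very long chains, overlapped between genotypes. Hsd17b4, the D-bifunctional protein, measured 9.07, 9.07 and 9.05 against 9.03, 9.06 and 9.12, and Acaa1a, the peroxisomal thiolase, 6.17, 6.25 and 6.30 against 6.21, 6.32 and 6.22. Their log2 differences were -0.01 each. Ehhadh, the L-bifunctional protein, measured 6.34, 5.69 and 6.11 in the knockout, against 5.95, 5.83 and 5.87 in the wild type. Knockout replicate 2 was the lowest array and the other knockout arrays the highest, so its difference of 0.16 was 0.34 without that array. Without knockout replicate 1, the highest array, it was 0.02.

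By step, the mean over the members of each array overlapped between genotypes in every step. The mitochondrial mean was 10.37, 10.30 and 10.26 in the knockout, against 10.45, 10.34 and 10.37 in the wild type, a mean difference of -0.08 beside SDs of 0.06 and 0.06 (n = 3). Knockout replicate 1 lay above wild-type replicate 2. The carnitine shuttle differed by -0.10 (knockout SD 0.04, wild-type SD 0.12), uptake by -0.01 and the peroxisomal genes by 0.05. Wild-type replicate 1 was the highest array over all 35 genes, at 9.60, and its column median of 4.71 was also the highest, where the other 5 columns lay between 4.60 and 4.65. These means describe a list chosen with results known and carry no test.

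**Figure D4:**
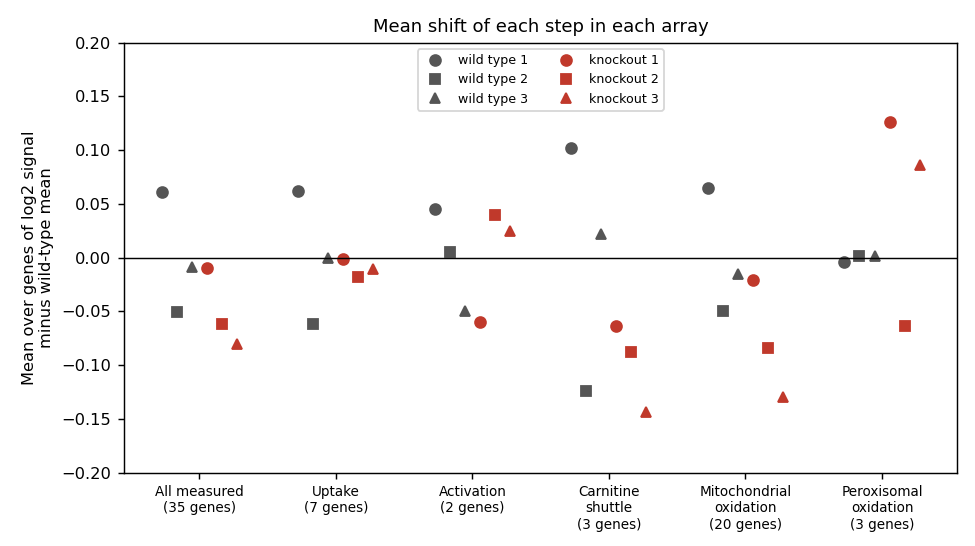
Mean over the genes of a step of the log2 signal minus each gene's wild-type mean, in each array (grey, wild type; red, knockout; circle, square and triangle, replicates 1 to 3). The arrays of the genotypes overlap in every step, and knockout replicate 3 is lowest for mitochondrial oxidation at -0.13.

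Regulators and other enzymes of fatty acid use were read from a list of 70 further genes, of which 63 were measured and 61 bright enough to test. None passed the adjusted threshold in limma. At an unadjusted p under 0.05 there were 6 lower, or 9.84%, and 0 higher, beside 9.02% and 4.71% of all probe sets. As deposited, 15 lay below without overlap and 1 above, or 24.6% and 1.64%, beside 12.9% and 6.12%. Fewer lay below after rescaling, where 10.6% of all probe sets did so after quantile normalization and 10.4% after median centring. Besides Slc25a20 and Crat, the separated genes with the smallest p were Prkaa2, Cav3, Rxrg and Acaa1b on the lower side. These and the first 2 stayed separate after both rescalings. Hsdl2 and Rxra were also lower without overlap after quantile normalization, and Crot and Pnpla2 after median centring. As deposited, the only higher gene without overlap was Phyh. After quantile normalization Phyh, Pccb and Sirt3 were higher without overlap, beside 9.39% of all probe sets. After median centring Phyh and Pccb were, beside 7.76%.

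Prkaa2, the alpha 2 catalytic subunit of AMP-activated kinase, which promotes fatty acid oxidation in muscle, measured 8.76, 8.87 and 8.65 in the knockout, against 9.04, 9.09 and 8.97 in the wild type. A gap of 0.10 separated the groups, with a log2 difference of -0.27 (SE 0.07, adjusted p = 0.18 in limma). Rxrg, a retinoid X receptor that pairs with PPARs, measured 7.48, 7.53 and 7.44 against 7.65, 7.72 and 7.63, a difference of -0.18 (SE 0.06, adjusted p = 0.273). Ppara itself, the main PPAR of the heart, overlapped at 8.08, 8.39 and 8.12 against 7.81, 8.47 and 8.23, a difference of 0.03.

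Cav3, the muscle caveolin, measured 7.32, 7.33 and 7.17 against 7.63, 7.61 and 7.43, a log2 difference of -0.28 (SE 0.08, adjusted p = 0.213 in limma). Acaa1b, a second peroxisomal thiolase gene, was dim and differed by -0.24, from 4.78 ± 0.07 to 4.55 ± 0.06 (SD, n = 3). Phyh, which starts the breakdown of branched chains in peroxisomes, measured 10.83, 10.80 and 10.83 against 10.78, 10.71 and 10.71, a difference of 0.09 (SE 0.05, adjusted p = 0.497). After quantile normalization Prkaa2, Rxrg, Cav3, Acaa1b and Phyh kept their sign at -0.24, -0.13, -0.24, -0.21 and 0.14. Macrophage markers had negative differences in 8 of 9 cases, or 88.9%, beside 59% of all probe sets tested. Their list mean overlapped, from 7.02 to 7.28 in the knockout and from 7.11 to 7.53 in the wild type. C1qb alone was lower without overlap, or 11.1% of these markers beside 12.9% of all. Its log2 difference was -0.51 (adjusted p = 0.14 in limma, and 0.037 when only annotated probe sets were tested, where 2.01% of all passed). Of the 9 fat cell markers measured, Car3 and Retn were lower without overlap, with differences of -0.36 (adjusted p = 0.186 in limma) and -0.17 (adjusted p = 0.554). Positive differences were seen for 3 of the 8 fat cell markers tested. The part of these cell types in the members' differences was not tested.

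The direction of the larger differences held when the arrays were rescaled, corrected for age or left out one at a time. Slc27a1, Acat1, Hadh, Eci1 and Etfdh stayed negative and Etfa positive in each of these settings, although their size changed. Their genotypes did not overlap as deposited, so leaving out an array could not change a sign. Median centring moved every difference by the same small amount. The direction held in those settings is therefore no further evidence. The adjusted p of a member was at its lowest 0.105, for Etfa, over all settings tried.

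**Figure D5:**
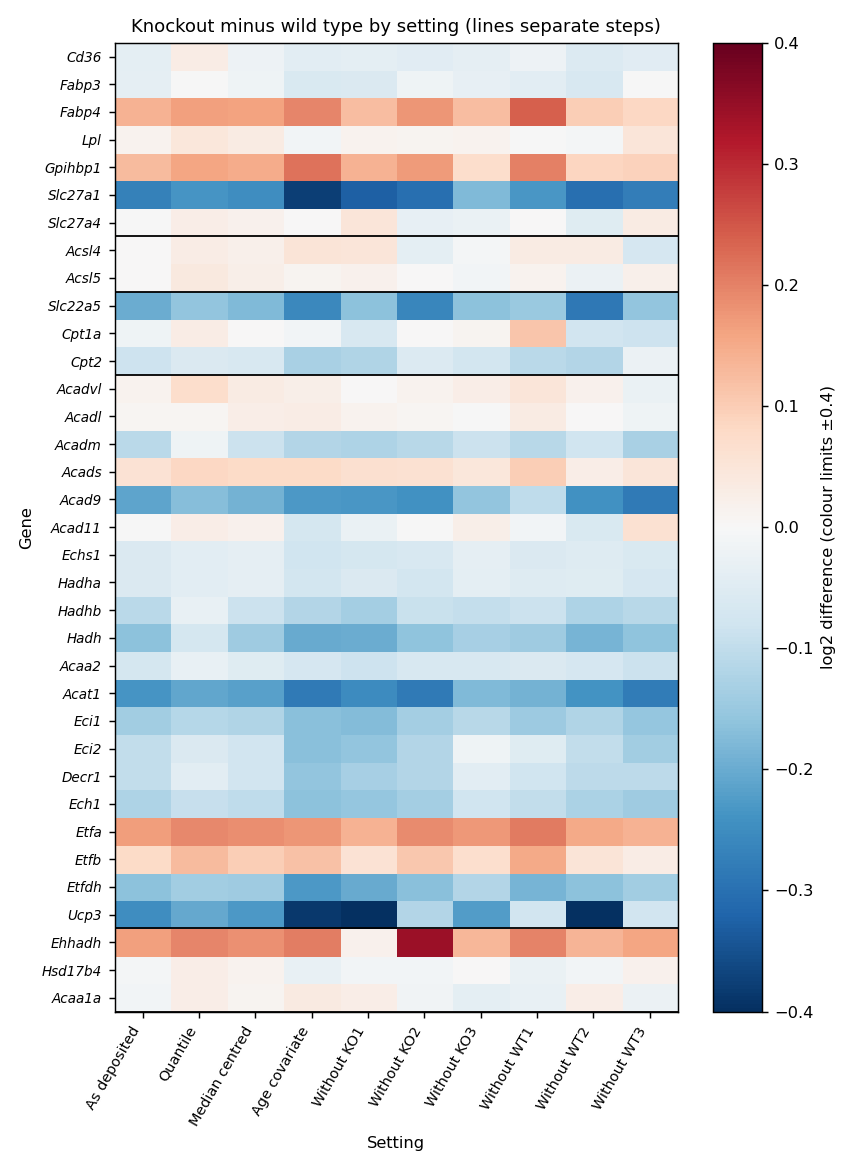
Log2 difference, knockout minus wild type, of the 35 genes (rows, by step) as deposited, after quantile normalization or median centring, with age as a covariate and without each array in turn (columns). Blue is lower and red higher in the knockout, with colours limited at 0.4, which Ucp3 reaches or passes without knockout replicate 1 and, at -0.60, without wild-type replicate 2. Slc27a1, Acat1 and Etfa keep their colour across the columns, and genes near 0 such as Cpt1a change it.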

How the data were processed

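Left ventricular RNA was measured in 3 knockout and 3 wild-type arrays, from 100 ng of biotin-labelled RNA per the labels' protocols. The authors deposited log2 expression values for 35556 probe sets, from 0.46 to 13.72. That these are log2 was inferred from their range. The submitters' processing notes list MAS5 but not what it was used for. Scaling between arrays was not described there. The number of arrays limits the precision.

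Genes were named by the platform annotation, symbols updated through RefSeq GRCm38.p6, and each gene was read from its probe set of highest mean. Genotypes were compared with limma 3.58.1 in R 4.3.3 (lmFit, eBayes with trend), two-sided, over 24898 probe sets with a mean at or above the 30th percentile (3.45), adjusted by Benjamini-Hochberg. The test was checked on simulated data whose shifts were all larger than any member's difference. That check therefore cannot show how often differences of the members' size would be found. Same-numbered arrays were not paired, since deviations from the group means correlated at -0.06, 0.02 and -0.06.

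The members, the gene lists and the tests were chosen with earlier results of these data known. All members are named. Of 70 other pathway genes, up to 6 per direction without overlap are named by p, and of the markers those without overlap and with an unadjusted p under 0.05. Myl4, Myl7, Adipoq, Retn, Cidea and Ppara were named besides, as were pathway genes that were separate after rescaling. Levels were not compared between genes, except that Etfa minus Etfdh was taken within each array to set its change between genotypes.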

Additional observations from a re-analysis of the deposited data

How the results depend on the processing

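No member passed the adjusted threshold under any alternative run. Members with an unadjusted p under 0.05 and lower signal numbered 5, and 2 after quantile normalization, 3 after median centring, 3 with a replicate block, 2 without the intensity trend and 2 to 5 with each array left out (2 without knockout replicate 2 or 3, 3 without wild-type replicate 1). Those with higher signal numbered 1, and 3 after quantile normalization, 0 with age in the model, 0 without the trend and 0 to 4 with each array left out (0 without knockout replicate 1 or wild-type replicate 2 or 3, 2 without knockout replicate 2, 4 without wild-type replicate 1). The replicate block otherwise left the calls of members as they were. Of all probe sets tested, those with lower signal at that p made up 9.02%, or 7.1% after quantile normalization and 7.29% after median centring. With each array left out it was 6.02% to 9.43%. Those with higher signal made up 4.71%, or 6.77% after quantile normalization, and 3.22% to 6.25% with each array left out. For the replicate block, the age model and the fit without the trend no such share was taken, so those counts stand alone. Cavin4 kept its log2 difference of -2.91 with the replicate block but not its call (adjusted p = 0.0754), and measured -3.115 to -2.775 with each array left out, with adjusted p of 0.0646, 0.118 and 0.0777 without knockout replicate 1, knockout replicate 3 and wild-type replicate 1. Of the other pathway genes, 1 (Slc25a20) passed among annotated probe sets only, where 2.01% of all probe sets passed.

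The sign changed for 10 of 35 members, all near 0, and Acsl4, at 0.00, had none. After quantile normalization Cd36, Slc27a4, Cpt1a, Acad11, Hsd17b4 and Acaa1a measured 0.031, 0.026, 0.029, 0.028, 0.027 and 0.026, and after median centring Slc27a4, Cpt1a, Acad11, Hsd17b4 and Acaa1a measured 0.017, 0.003, 0.017, 0.013 and 0.010. With age as a covariate Lpl, Slc27a4 and Acaa1a measured -0.010, 0.003 and 0.035, and with array weights Slc27a4, Cpt1a and Acad11 measured 0.001, 0.037 and 0.019. With each array left out the ranges were -0.007 to 0.048 for Lpl, -0.047 to 0.048 for Slc27a4, -0.025 to 0.020 for Acsl5, -0.083 to 0.112 for Cpt1a, -0.027 to 0.048 for Acadvl, -0.017 to 0.033 for Acadl, -0.060 to 0.060 for Acad11, -0.027 to 0.018 for Hsd17b4 and -0.040 to 0.025 for Acaa1a. The cause was not tested.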

Other observations

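The 3 retinoid X receptor genes lay lower in the knockout without overlap in the deposited values, as did 12.9% of all probe sets tested, and none passed the adjusted threshold. Rxra measured 6.78, 6.64 and 6.65 against 6.89, 6.81 and 6.82, and Rxrb 6.27, 6.16 and 6.15 against 6.34, 6.30 and 6.36, with log2 differences of -0.15 and -0.14 beside the -0.18 of Rxrg. Ppard, a PPAR of muscle, measured 6.77, 6.74 and 6.67 against 6.80, 6.91 and 6.89, a difference of -0.14 without overlap, while Pparg and Ppara overlapped at 0.04 and 0.03. Adjusted p-values in limma were 0.425, 0.464, 0.273 and 0.442 for Rxra, Rxrb, Rxrg and Ppard. Quantile normalization gave -0.11, -0.10, -0.13 and -0.10, after which Rxra and Rxrg were still separate and Rxrb and Ppard overlapped. After median centring Rxrg alone of the 4 was separate. These genes were picked after their values were seen.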
